A study of Mus musculus with 21 samples.

Results

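The 10 genes described here control exit from the cell cycle: the CDK inhibitors Cdkn1a, Cdkn1b, Cdkn1c, Cdkn2a and Cdkn2c, the pocket proteins Rb1 and Rbl1, the D-type cyclins Ccnd1 and Ccnd3, and Trp53. They were chosen by name, out of 19300 protein-coding genes with a body of at least 2 kb. The measurement was ChIP-seq of H3K36me3, a mark that SETD2 places over the bodies of transcribed genes, in C2C12, a mouse myoblast line that can form muscle cells in culture. Each value below is the cover of a gene, the percent of its RefSeq body that lay inside the deposited peaks of 1 library. Wild-type (WT) cells were sampled at day 0, at days 1 and 5 in control medium, and at days 1 and 5 under methionine restriction, with 2 libraries per condition. Each of 2 lines that the labels call Setd2 knockouts (KO line 1 and KO line 2) had 1 library in each of these 5 conditions, so KO values have no replicate within a line. How the lines were made, and whether each is a single clone, is not given in the sources used here. The labels do not say that replicates came from separate cultures, so p-values measure only the spread between these libraries.

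In a cycling cell, D-type cyclins pair with CDK4 or CDK6 and phosphorylate the pocket proteins, which then release E2F factors and let S phase genes be transcribed. CDK inhibitors of the Cip/Kip family (Cdkn1a, Cdkn1b, Cdkn1c) and of the INK4 family (Cdkn2a, Cdkn2c) restrain these kinases, and p53 is the best known activator of Cdkn1a. Myoblasts leave the cell cycle for good as they fuse, and Cdkn1a, Rb1 and Ccnd3 are known for their roles in that step.

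WT lists held 63423 to 87398 peaks over 109.9 to 183.5 Mb. KO line 1 had 791 to 64530 peaks and KO line 2 had 127 to 13880. Depth is unknown, because peak lists carry none, and a list with few peaks may come from a shallow library. Names of the peaks inside the KO lists treat the 2 lines as replicates 1 and 2 of a single KO group, whereas the labels, followed here, call them lines. The body of Setd2 itself was covered to 65.6 to 78.0% at day 0 in WT, 62.4 to 69.9% at day 1 and 78.4 to 82.8% at day 5 in control medium, and 45.6 to 52.8% and 55.7 to 60.7% under restriction. In KO line 1 it was covered to 3.15% at day 0, 2.07% at day 1 in control medium, 0% at day 1 under restriction, 24.0% at day 5 in control medium and 2.67% at day 5 under restriction, and in KO line 2 to 0% in all 5 libraries. These values report the mark over the gene, not the SETD2 protein.

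Of 5 myoblast markers, 3 to 5 were covered in each WT library, with a summed cover of 236 to 256 points at day 0 and in control medium and 104 to 118 under restriction. The summed cover of 7 genes of differentiating muscle (Myog, Mef2c, Myh3, Acta1, Ckm, Tnnt3, Mymk) was 0 points at day 0, 214 to 217 at day 1 and 541 to 569 at day 5 in control medium. In restricted medium this sum was 0 to 19.8 points at day 1 and 122 to 146 at day 5. Adipocyte markers summed to at most 2.31 points in WT, and the measured osteoblast (3 of 4), endothelial (3 of 3) and leukocyte (2 of 3) markers were at 0. The myoblast sum thus moved with medium and the muscle sum with both day and medium, and their part in the differences of the cell cycle genes was not tested. Fewer cells with the mark and less mark per cell cannot be told apart in such bulk libraries.

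The promoters that the results turn on are those of Cdkn1a, where peaks of KO line 1 reached the start region, and of Rbl1, whose body lost cover by day 5. Sequences come from RefSeq on GRCm38.p6, the 250 bases before each listed start. Capitals mark matches to ACATGT (a form of the p53 half-site), to TTTCGCGC or TTTGGCGC (E2F forms) and to CAGCTG or CAGGTG (E box forms), searched on both strands.
Cdkn1a, first start, chr17:29090729-29090978, plus strand: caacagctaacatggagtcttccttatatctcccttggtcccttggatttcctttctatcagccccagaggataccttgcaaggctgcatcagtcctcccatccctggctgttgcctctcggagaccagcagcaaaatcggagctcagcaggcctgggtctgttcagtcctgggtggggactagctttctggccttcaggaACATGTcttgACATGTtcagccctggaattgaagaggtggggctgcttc
Cdkn1a, second start, chr17:29093519-29093768, plus strand: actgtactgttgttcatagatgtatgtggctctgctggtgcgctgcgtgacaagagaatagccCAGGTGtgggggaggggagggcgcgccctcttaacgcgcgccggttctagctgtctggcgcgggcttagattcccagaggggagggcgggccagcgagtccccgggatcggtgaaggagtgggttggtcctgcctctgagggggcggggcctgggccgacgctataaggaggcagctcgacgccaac
Rbl1, chr2:157204535-157204784, minus strand: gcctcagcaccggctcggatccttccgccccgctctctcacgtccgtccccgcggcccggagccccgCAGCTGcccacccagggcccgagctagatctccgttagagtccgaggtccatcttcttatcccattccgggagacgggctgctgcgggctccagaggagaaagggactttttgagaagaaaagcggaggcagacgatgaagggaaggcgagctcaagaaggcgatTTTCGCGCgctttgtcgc
The window of the first Cdkn1a start held ACATGT at positions -49 and -39, counted from the start. Of 19079 promoter windows, 3.18% held this hexamer and 0.152% held it at least 2 times. The second Cdkn1a start had an E box form at position -187. Rbl1 had an E2F form at position -18 and an E box form at position -183. E2F forms were in 0.896% of windows and E box forms in 27.6%. Entries existed for 7 of the 10 genes, and the windows of Cdkn1b, Cdkn2a, Cdkn2c, Ccnd3 and Trp53 held none of these letters. A match describes letters only and shows no binding.

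Cdkn1a encodes p21, a CDK inhibitor, and its body spans 9.74 kb (chr17:29090979-29100722). In WT its cover was 52.2 and 59.8% at day 0, 69.4 and 66.5% at day 1 and 70.1 and 65.6% at day 5 in control medium. With restriction, cover was 49.5 and 40.6% at day 1 and 35.8 and 52.0% at day 5. At both days the restricted libraries lay below all control libraries of that day. In limma fits over 9512 genes with a mean WT cover of at least 5%, with Benjamini-Hochberg adjustment, cover fell by 22.9 points at day 1 (SE 6.02, adjusted p = 0.0175) and by 24.0 points at day 5 (SE 6.02, adjusted p = 0.012). The WT peaks lay over the body away from the first start. Of 3 equal segments of the body, the first from the start was covered to at most 10.9% in any WT library, and the last to 78.0 to 100%. Among the peaks of its own list, the highest Cdkn1a peak by the authors' fold enrichment stood above at least 99.7% of peaks in the 6 libraries of day 0 and control medium. In the restricted libraries it stood above 55.0 to 88.1%. Ranked by −log10 q instead, the highest Cdkn1a peak stood above 86.3 to 98.4% in the restricted libraries. In the 6 libraries of day 0 and control medium this rank was at least 99.8%.

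Cdkn1b encodes p27, another inhibitor of the Cip/Kip family, in a body of 5.12 kb (chr6:134920401-134925525). Its WT cover was 71.0 and 57.6% at day 0, 55.5 and 60.2% at day 1 and 67.4 and 46.5% at day 5 in control medium. It was listed at 0 in all 4 restricted WT libraries. The differences were -57.8 points at day 1 (SE 6.96, adjusted p = 0.000433) and -57.0 points at day 5 (SE 6.96, adjusted p = 0.000346). Its first segment was covered to at most 18.2% in WT, so most of the cover that disappeared lay over the middle and last segments. A cover of 0 says that no peak was called there, not that the mark was absent.

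Cdkn1c (p57, chr7:143458339-143461059), the third Cip/Kip gene, is imprinted. It was listed at 0 in all 20 libraries. Cdkn2a, which encodes p16INK4a and p19ARF (chr4:89274473-89294619), was at 0 in all 20 libraries too. Its neighbours Cdkn2b and Dmrta1 also had no peak in any library. Mtap, the neighbour on the other side and an enzyme of methionine salvage, was covered to 86.9 to 93.0% at day 0 in WT. Mtap then had 76.9 to 84.4% at day 1 and 56.0 to 59.3% at day 5 in control medium, and 37.0 to 53.7% and 33.3 to 37.9% under restriction. In KO line 1 Mtap went from 32.8% at day 0 to 63.3% in the day 5 control library. Peaks were thus called at this locus, over Mtap and not over Cdkn2a, also in KO line 1. Peak lists cannot tell a gene without the mark from a stretch that is absent from the genome of these cells. Which of these holds for Cdkn2a was not tested.

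Cdkn2c (p18INK4c, chr4:109660876-109666756) had peaks only in the last segment of its 5.88 kb, in the 4 WT libraries of day 0 and of day 1 without restriction. Its cover was 13.7 and 7.53% at day 0 and 6.56 and 4.78% at day 1, and 0 in the other 6 WT libraries and in all 10 KO libraries. Its mean WT cover of 3.25% was under the 5% minimum. With no filter on cover it fell by 10.6 points from day 0 to day 5 (SE 1.76, adjusted p = 0.00243), while the difference of -5.67 points under restriction at day 1 was not called (adjusted p = 0.0577).

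**Figure D1:**
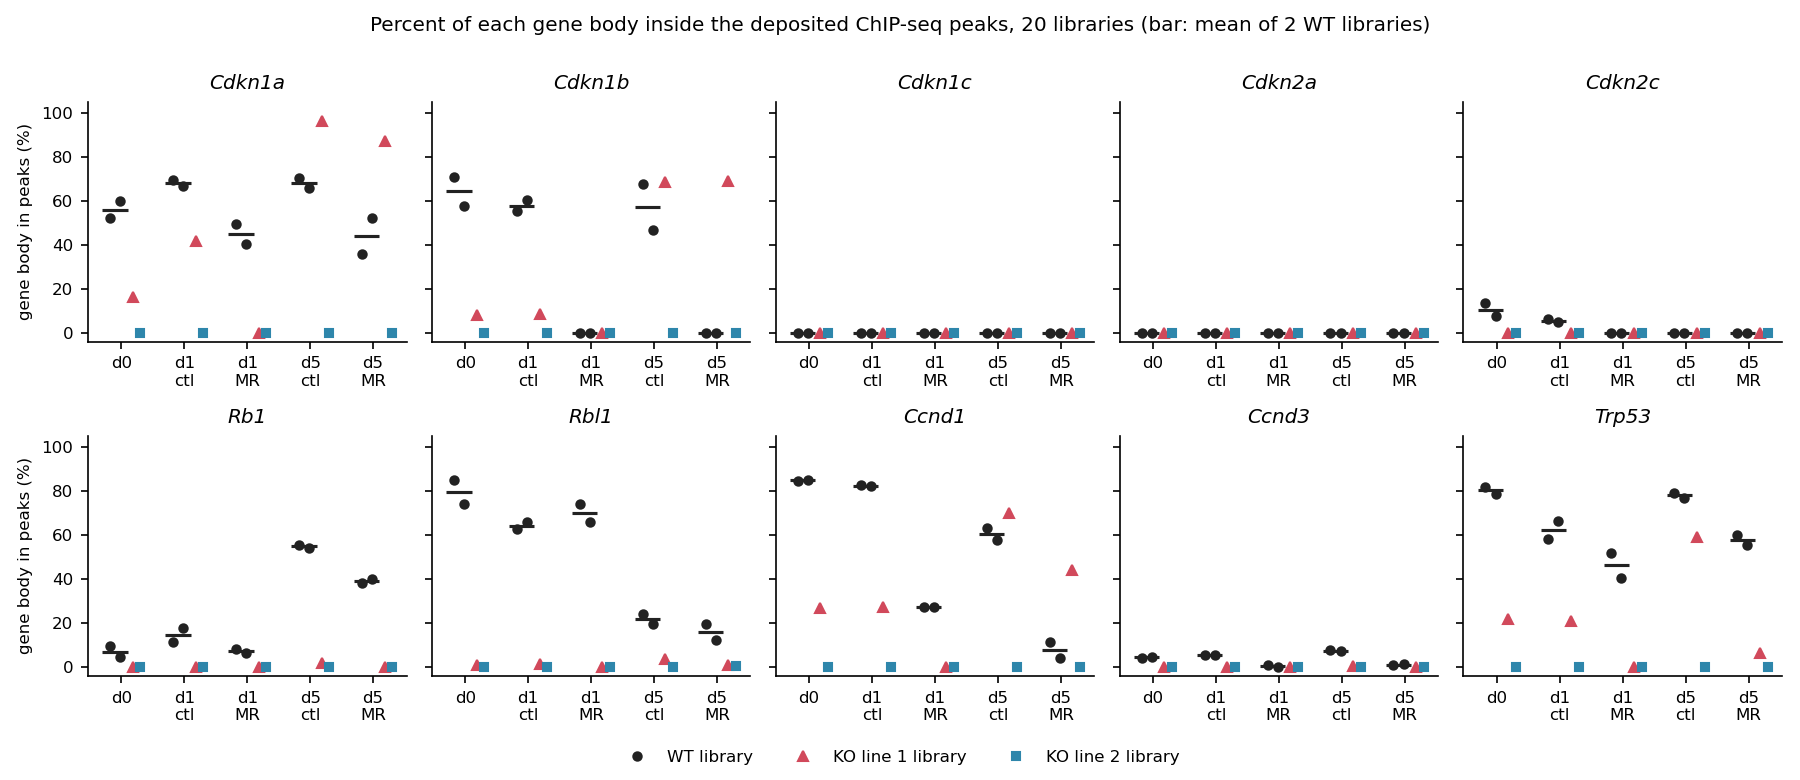
Cover of the 10 genes in each of the 20 libraries: the x axis gives day and medium (ctl, control; MR, methionine restriction) and the y axis the percent of the gene body inside peaks. Black dots are the 2 WT libraries with their mean as a bar, red triangles KO line 1 and blue squares KO line 2. Rb1 and Rbl1 cross between day 1 and day 5, Cdkn1b is at 0 in the 4 restricted WT libraries, and KO line 1 rises to 96.1% at Cdkn1a.

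Rb1 encodes the retinoblastoma protein, the founding pocket protein, and is the longest of the 10 genes (chr14:73192858-73325951, 133 kb). Its WT cover was 9.76 and 4.40% at day 0, 11.4 and 17.6% at day 1 and 55.5 and 54.3% at day 5 in control medium. With restriction, cover was 8.37 and 6.34% at day 1 and 38.4 and 40.2% at day 5. All 4 day 5 libraries lay above all earlier ones. In control medium cover rose by 47.8 points from day 0 to day 5 (SE 3.42, adjusted p = 1.98e-05) and by 40.4 points from day 1 to day 5 (SE 3.42, adjusted p = 7.8e-05). The number of peaks over the gene went from 12 and 16 at day 0 to 43 and 46 at day 5, with 30 and 28 at day 5 under restriction. At day 5 restriction lowered the cover by 15.6 points (SE 3.42, adjusted p = 0.00643). The table of genes lists no strand for Rb1. By coordinate, its upper segment had 48.1 to 49.0% in control and 23.5 to 25.3% in restricted day 5 libraries, and its lower segment 53.6 to 55.5% and 47.9 to 52.5%. The restricted and control libraries were thus farther apart in the upper segment than in the lower one.

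Rbl1 encodes p107, a pocket protein that is abundant in cycling cells (chr2:157145893-157204534, 58.6 kb, minus strand). Its WT cover was 84.9 and 73.9% at day 0, 62.7 and 65.9% at day 1 and 24.1 and 19.7% at day 5 in control medium. With restriction, cover was 74.0 and 65.8% at day 1 and 19.5 and 12.5% at day 5. Rbl1 thus took the opposite course to Rb1. It fell by 57.5 points from day 0 to day 5 (SE 5.18, adjusted p = 7.79e-05), and it fell by 42.4 points from day 1 to day 5 (SE 5.18, adjusted p = 0.000627). Restriction gave differences of 5.62 points at day 1 (95% interval -6.27 to 17.5, adjusted p = 0.43) and -5.90 points at day 5 (95% interval -17.8 to 5.98, adjusted p = 0.385), and neither was called. At day 0 the 3 segments of the body were covered alike, at 70.1 to 87.7%. At day 5 the first segment had 29.2 to 35.4% against 6.98 to 17.3% in the middle one.

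Ccnd1 encodes cyclin D1, the D-type cyclin of proliferating myoblasts (chr7:144929931-144939831, 9.90 kb). Its WT cover was 84.7 and 84.9% at day 0, 82.5 and 82.3% at day 1 and 63.0 and 57.6% at day 5 in control medium. With restriction, cover was 27.1 and 27.4% at day 1 and 11.4 and 4.10% at day 5. Replicates lay within 0.311 points of each other at days 0 and 1, and no restricted library overlapped a control library. Restriction lowered cover, which fell by 55.1 points at day 1 (SE 3.98, adjusted p = 4.96e-05) and by 52.6 points at day 5 (SE 3.98, adjusted p = 3.38e-05). In control medium it fell by 24.5 points from day 0 to day 5 (SE 3.98, adjusted p = 0.00215). The table lists LTO1 over 8.26% of the body. The single long peak of day 0 and day 1 was broken into 4 and 5 peaks at day 5 in control medium. With peaks up to 1 kb apart joined, the difference between day 0 and day 5 was -6.23 points and was no longer called (adjusted p = 0.328), and that between day 1 and day 5 was -4.17 points (adjusted p = 0.525).

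Ccnd3 encodes cyclin D3, the D-type cyclin known to rise in differentiating muscle (chr17:47505051-47599689). RefSeq lists a start far upstream, 88416 bases before the downstream start, so a body of 94.6 kb dilutes the cover. Over the whole body it was 4.33 to 7.68% in the 6 day 0 and control libraries and 0.302 to 1.37% in the 4 restricted ones. From the downstream start (chr17:47593467-47599689, 6223 bases), a choice added after seeing the data, cover was 65.9 and 70.6% at day 0, 82.6 and 82.1% at day 1 and 76.7 and 77.2% at day 5 in control medium. It was 13.9 and 4.60% at day 1 and 15.7 and 20.8% at day 5 under restriction. Measured so, cover fell by 73.1 points under restriction at day 1 (SE 4.37, adjusted p = 3.2e-05) and by 58.7 points at day 5 (SE 4.37, adjusted p = 3.14e-05). Over the whole body with no filter on cover, it fell by 4.81 points (SE 1.12, adjusted p = 0.0156) and it fell by 6.26 points (SE 1.12, adjusted p = 0.00282). Gm41590 and Bysl are listed over 8.01% of the Ccnd3 body. Bysl had 49.0 and 51.7% at day 1 and 68.5 and 85.3% at day 5 under restriction, against 73.0 to 86.8% in the other WT libraries.

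Trp53 encodes p53 (chr11:69580348-69591873, 11.5 kb). Its WT cover was 81.7 and 78.7% at day 0, 58.2 and 66.2% at day 1 and 79.1 and 76.9% at day 5 in control medium. With restriction, cover was 51.9 and 40.6% at day 1 and 59.9 and 55.6% at day 5. The restricted libraries lay below the control libraries of their day. Cover fell by 16 points at day 1 (SE 4.71, adjusted p = 0.0282) and it fell by 20.3 points at day 5 (SE 4.71, adjusted p = 0.00848). The last segment was covered to 92.7 to 100% in all 10 WT libraries. The first segment went from 30.7 and 37.2% in control medium at day 5 to 3.51 and 6.40% under restriction.

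**Figure D2:**
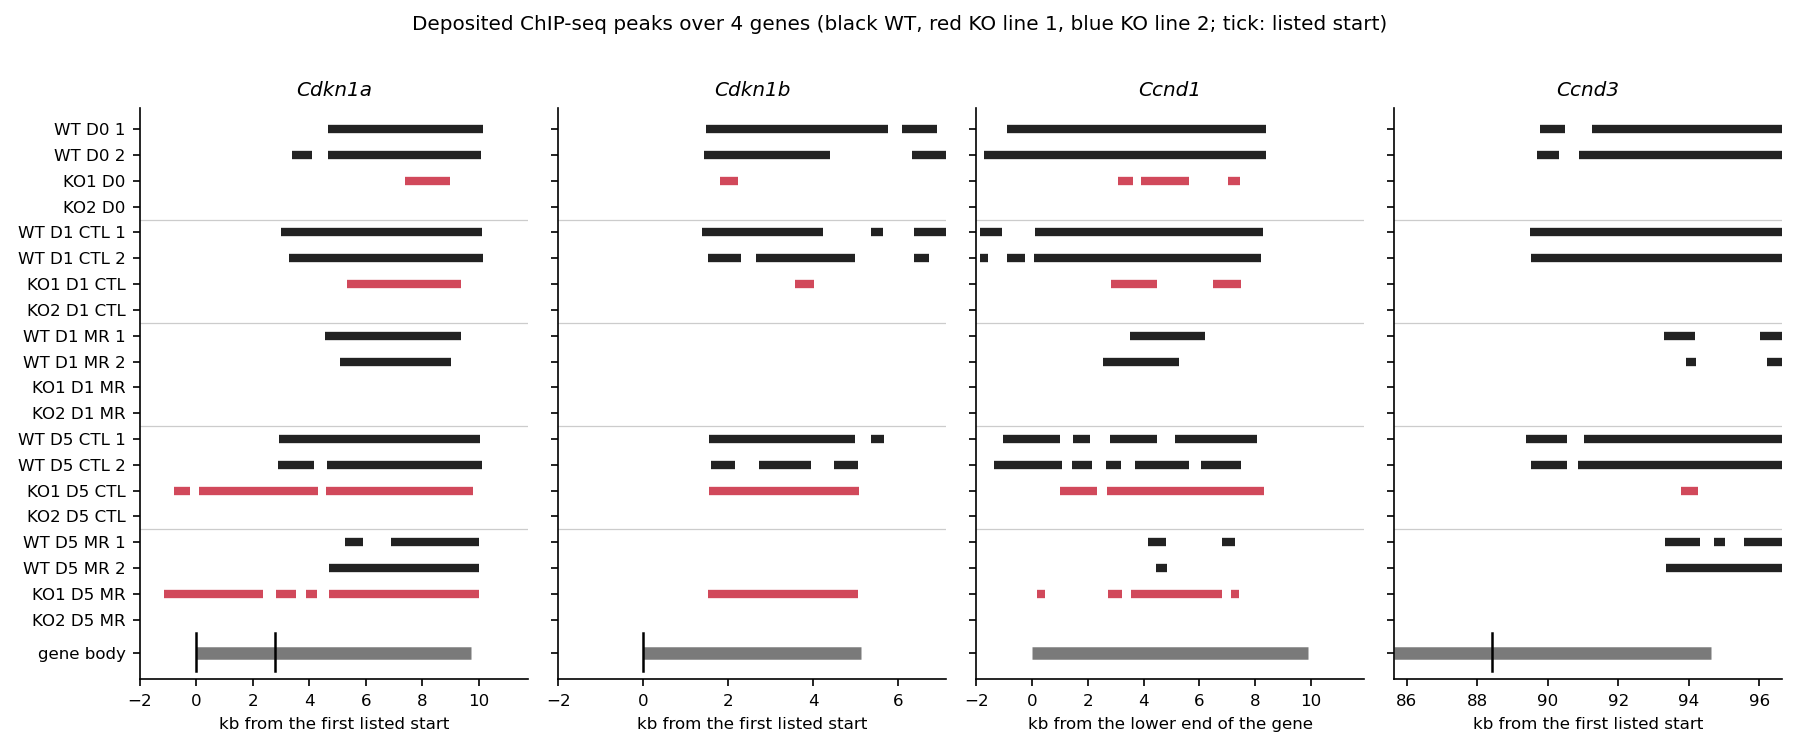
Deposited peaks over Cdkn1a, Cdkn1b, Ccnd1 and the downstream part of Ccnd3, 1 row per library: the x axis is the distance in kb from the first listed start, or from the lower end of Ccnd1, whose strand is not listed. Bars are peaks (black WT, red KO line 1, blue KO line 2), the grey bar is the gene body and ticks are listed starts. Restricted WT rows are empty at Cdkn1b, and at Ccnd1 and Ccnd3 their bars take up little of the gene body (at most 27.4% of Ccnd1), though at Ccnd3 day 5 restricted replicate 2 has a peak of 11.3 kb that runs on past the end of the gene, and red bars of day 5 reach past the first Cdkn1a start.

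Restricted and control libraries of the same day were compared to ask how cover differs when methionine, the source of the methyl groups on histones, is limited. At day 1, 4 of the 6 tested members were called lower (Ccnd1, Cdkn1b, Cdkn1a, Trp53), where 36.0% of all 9512 genes were called lower and 2.38% higher. The median difference of the 6 was -19.4 points against -7.99 for all genes. At day 5, 5 of 6 were called lower (Ccnd1, Cdkn1b, Cdkn1a, Trp53, Rb1) against 41.5% of all genes, with 4.32% of all genes higher. The medians there were -22.1 and -9.15 points. Calls of Ccnd1 and Cdkn1b held in all 18 alternatives at both days, with an adjusted p of at most 0.00812 for Ccnd1 and 0.0245 for Cdkn1b.

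Other calls under restriction depended on the setting. With each library centred on its median, Cdkn1a differed by -7.71 and -7.31 points (adjusted p = 0.284 and 0.302) and Trp53 by -0.773 and -3.59 points (adjusted p = 0.874 and 0.423). Centring turned Rb1 at day 5 to 1.09 points (adjusted p = 0.784), lists cut to equal covered length turned it to 4.87 points (adjusted p = 0.183), and peaks of −log10 q of at least 3 gave -7.38 points (adjusted p = 0.0999). Centring called Rbl1 higher, by 20.8 points at day 1 (adjusted p = 0.00335) and 10.8 at day 5 (adjusted p = 0.0488). Cdkn1a at day 1 also lost its call without either control library or without restricted replicate 2 (adjusted p = 0.0848, 0.0608 and 0.112), and at day 5 without control replicate 1 or restricted replicate 1 (adjusted p = 0.08 and 0.0848). Trp53 lost it at day 1 without control replicate 2 or restricted replicate 2 (adjusted p = 0.168 and 0.152) and at day 5 without control replicate 1 or restricted replicate 2 (adjusted p = 0.0577 and 0.0571). Counting the centred fit, the Trp53 call was lost in 7 of 18 alternatives at day 1 and in 4 at day 5. Over all genes, centring moved the split from 226 higher and 3422 lower to 3518 and 1246 at day 1, and from 411 and 3944 to 3763 and 1395 at day 5. Lists of equal covered length gave 845 and 1978 at day 1 and 1425 and 2073 at day 5.

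The effect of restriction at day 5 was compared with that at day 1 in an interaction term. None of the 6 members was called by limma, and 0 had an unadjusted p under 0.05. Of all genes 1.62% were called higher and 3.58% lower. That split, 154 higher and 341 lower, turned to 314 and 218 with peaks of −log10 q of at least 3. The interaction of Ccnd1 was 2.54 points (SE 5.63, adjusted p = 0.85). With only peaks of −log10 q of at least 3 it was 50.5 points (adjusted p = 0.00295) and with lists of equal covered length 33.7 points (adjusted p = 0.0225). The interval for Cdkn1b ran from -21.7 to 23.4 points around a difference of 0.878.

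Between day 0 and day 1 in control medium none of the 6 members was called by limma, and 2 (Trp53 and Rbl1) had an unadjusted p under 0.05. Trp53 differed by -18.0 points (SE 4.71, adjusted p = 0.0587) and Rbl1 by -15.1 points (SE 5.18, adjusted p = 0.119). Trp53 was called lower with peaks of −log10 q of at least 3 (-24.1 points, adjusted p = 0.0332) and without either restricted library of day 1 (adjusted p = 0.0413 and 0.0406), and Rb1 was called higher with centring (15.9 points, adjusted p = 0.0275). Of all genes 0.967% were called higher and 5.65% lower. From day 1 to day 5, Rb1 and Trp53 were called higher and Rbl1 and Ccnd1 lower, where 17.1% of all genes were called higher and 5.95% lower. The rise of Trp53, 15.8 points (SE 4.71, adjusted p = 0.0437), lost its call in 11 of 18 alternatives, among them the fit with the replicate number as a block (adjusted p = 0.0579). Between day 0 and day 5 Rb1 was called higher and Rbl1 and Ccnd1 lower, where 12.2% of all genes were called higher and 15.6% lower. Cdkn1a differed by 11.9 points over these 5 days (95% interval -1.95 to 25.8, adjusted p = 0.192). Calls of Rb1 and Rbl1 held in all 18 alternatives of both comparisons that end at day 5. Rb1 ranged there from 25.1 to 56.7 points against day 0, and Rbl1 from -66.6 to -52.0 points.

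**Figure D3:**
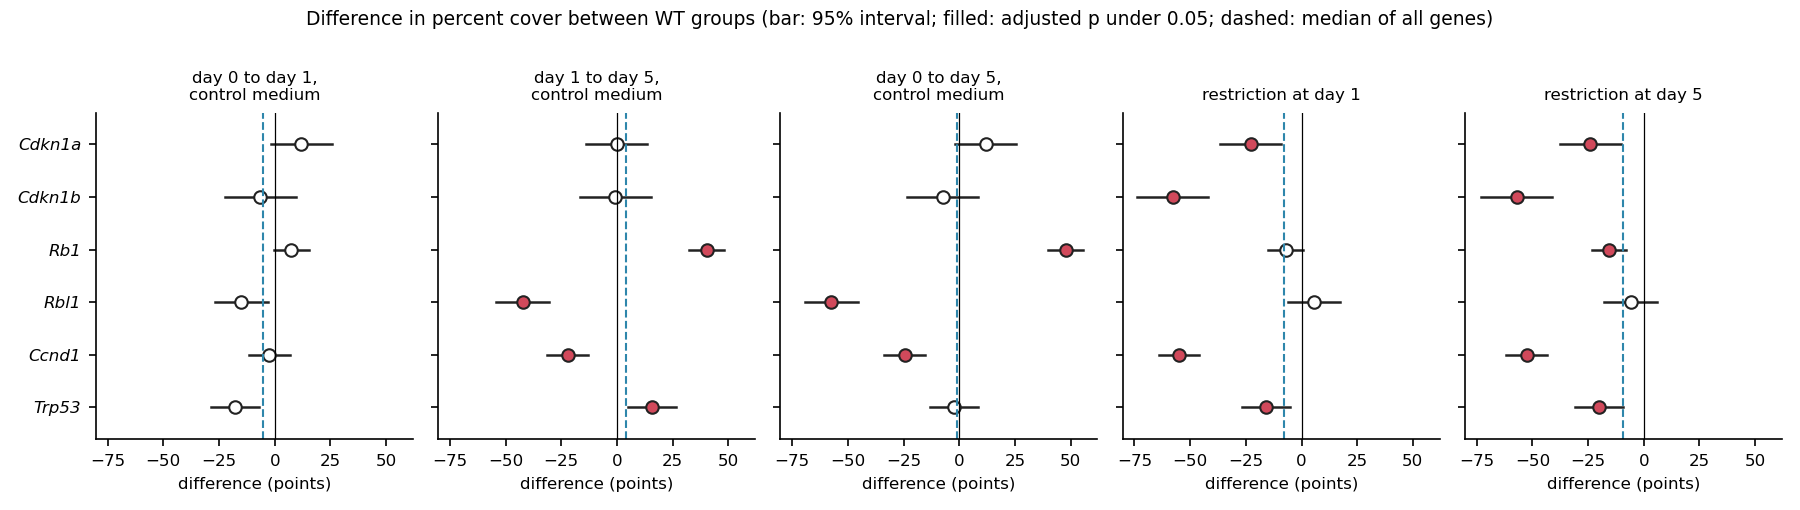
Differences in cover between WT groups for the 6 tested genes, in percentage points on the x axis with 95% intervals from limma: filled dots have an adjusted p under 0.05. The dashed line is the median of all 9512 genes, -7.99 points for restriction at day 1 and -9.15 at day 5. Rb1 lies at 47.8 points and Rbl1 at -57.5 points from day 0 to day 5, and Ccnd1 and Cdkn1b lie beyond -50 points under restriction.

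Against WT, cover in the KO lines was lower at 5 of the 6 tested members in a fit over all 20 libraries with day and medium as a term, where 97.6% of 8859 genes were called lower and 0.0677% higher. That fit had no term for the line. The 10 KO libraries of 2 lines entered it as separate samples, so its p-values do not measure the spread between KO lines. Trp53 fell by 54.0 points (SE 5.87, adjusted p = 1.03e-07), Rbl1 by 49.5 points (SE 6.75, adjusted p = 1.85e-06) and Ccnd1 by 35.7 points (SE 10.6, adjusted p = 0.00396). Cdkn1a fell by 32.0 points (SE 11.8, adjusted p = 0.0155) and Rb1 by 24.4 points (SE 4.77, adjusted p = 0.000107). Cdkn1b differed by -20.3 points (95% interval -45.0 to 4.28, adjusted p = 0.101) and was not called. With KO line 1 alone the calls of Cdkn1a and Ccnd1 were lost, at -7.87 points (adjusted p = 0.491) and -18.9 points (adjusted p = 0.109). From its second start Cdkn1a differed by -52.1 points (adjusted p = 0.000876). Over the whole body Cdkn1a also lost its call without the day 0 libraries (adjusted p = 0.0756) or either day 1 condition (adjusted p = 0.0636 in control medium and 0.0697 under restriction). Cdkn1b was called with KO line 2 alone, at -35.8 points (adjusted p = 0.00189), and without the restricted day 5 libraries, at -34.1 points (adjusted p = 0.00338). With centring, Trp53 and Rbl1 differed by -7.82 and -3.33 points (adjusted p = 0.166 and 0.654) and lost their calls, and the other 4 members turned to positive differences. Those were called for Rb1 (21.8 points, adjusted p = 0.00115) and Cdkn1b (25.8 points, adjusted p = 0.0244) and not for Ccnd1 (10.5 points, adjusted p = 0.305) and Cdkn1a (14.2 points, adjusted p = 0.255). The average over lines and conditions joins libraries that differ widely.

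KO line 2 had no peak on any of the 10 genes in 4 of its libraries, and at day 5 under restriction only 0.523% of Rbl1 lay in peaks. KO line 1 differed from it. Its cover of Cdkn1a was 16.3% at day 0, 41.8% at day 1 in control medium, 0 at day 1 under restriction, 96.1% at day 5 in control medium and 87.2% at day 5 under restriction. Over the whole body both day 5 values were above all 10 WT libraries, in which Cdkn1a reached at most 70.1%. That order depended on the start: from the second start (chr17:29093769-29100722), KO line 1 had 95.6% in control medium and 88.4% under restriction. WT had 98.3 and 91.9% there at day 5 in control medium, 97.2 and 93.2% at day 1 in control medium, and 50.1 and 72.8% at day 5 under restriction. In that line Cdkn1a had more cover than 99.6% of the 8859 genes at day 5 in control medium and than 99.2% under restriction, where the medians of all genes were 11.04 and 0.506%. By the authors' fold enrichment the highest Cdkn1a peak stood above 99.97% of its day 5 list in control medium and 99.78% under restriction. At day 0 it stood above 31.8% and at day 1 in control medium above 75.9%. These lists differ in length (23529 peaks at day 0, 64530 and 52487 at day 5), so the shares are ranks within unlike lists.

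Cdkn1b followed in KO line 1, with 8.37% at day 0, 8.66% at day 1 in control medium, 0 at day 1 under restriction, 68.6% at day 5 in control medium and 69.1% at day 5 under restriction. Restricted WT libraries of the same day had no peak there. Ccnd1 had 26.9% at day 0, 27.2% at day 1 in control medium, 0 at day 1 under restriction, 70.0% at day 5 in control medium and 44.0% at day 5 under restriction. In WT its cover went the other way between day 0 and day 5. Trp53 had 22.0, 21.1, 0, 59.1 and 6.46% in the same order of conditions, below WT in all 5. Rb1 reached at most 1.91% and Rbl1 at most 3.63% in KO line 1, both at day 5 in control medium. Ccnd3 from its downstream start had 7.70% in that library and 0 in the other 4.

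In control medium 4 members (Cdkn1a, Cdkn1b, Ccnd1, Trp53) were at least 10 points higher at day 5 than at day 0 in KO line 1, against 47.6% of the 8859 genes. Under restriction 3 were (Cdkn1a, Cdkn1b, Ccnd1), against 16.9% of genes. The same 3 genes were above both WT libraries of their condition, where 6.52% of genes were so in control medium and 10.7% under restriction. For Cdkn1a in control medium this rested on the stretch before the second start, since from that start KO line 1 lay between the WT libraries. Settings added after seeing the data moved other values. With peaks up to 1 kb apart joined, Cdkn1b in control medium had 68.6% in KO line 1 against 69.9 and 67.6% in WT, and Ccnd1 had 73.8% against 81.6 and 75.6%, so neither was above both, while 7.05% of genes were. With peaks of −log10 q of at least 3, Cdkn1a under restriction had 51.9% against 35.8 and 52.0% and was not above both, while 7.08% of genes were. In both media at once, 380 genes (4.29%) lay above WT. KO line 1 is 1 library per condition, so these values have no replicate check and no test. Its list grew from 23529 peaks at day 0 to 64530 and 52487 at day 5, and the summed cover of the 7 differentiating muscle markers in it was 0 points at day 0 and 96.8 and 74.5 at day 5. That sum came from 3 of the 7 genes (Acta1, Tnnt3, Mymk), with Myog, Mef2c, Myh3 and Ckm at 0 in both day 5 libraries. The summed cover of the 5 myoblast markers was 0 at day 0 and 88.7 and 50.8 points at day 5, all of it at Des and Cdh15. The part of list length and of these markers in these values was not tested.

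The place of the peaks on Cdkn1a also differed, an observation made after its values were seen. In KO line 1 at day 5 the first segment of the body was covered to 97.6% in control medium and 85.5% under restriction, against 0 to 10.9% in all WT libraries. The gap to the higher WT library was 86.7 and 85.5 points. Of 7183 tested genes with a listed strand, 6 had a gap that large in control medium and 15 under restriction, Cdkn1a included. KO line 1 was above both WT libraries in the first segment at 10.2% and 15.97% of these genes. With only peaks of −log10 q of at least 3, the first segment had 97.6% in control medium and 0 under restriction. The restricted value thus rested on peaks below that minimum, among them the peak of −log10 q 1.91 over the first start. Peaks reached the promoter windows printed above. The window of the first Cdkn1a start lay in peaks over 10% of its length in control medium and 100% under restriction, and that of the second start over 100% in control medium and 0 under restriction. The peaks in the first window had a −log10 q of 2.02 and 1.91 and dropped out at a minimum of 3, and that in the second had 4.85. None of the other 18 libraries had a peak in these windows, and none of the 20 had one in the windows of the other 6 genes. Over all 19079 windows, 1.17% and 1.10% were touched by a peak in the 2 day 5 libraries of KO line 1, and 0.975 to 2.73% in WT libraries. Cdkn1b differed in shape: its first segment was covered to 8.78 and 10.9% in KO line 1 at day 5 and to 6.85 to 18.2% in the WT libraries that had peaks there.

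**Figure D4:**
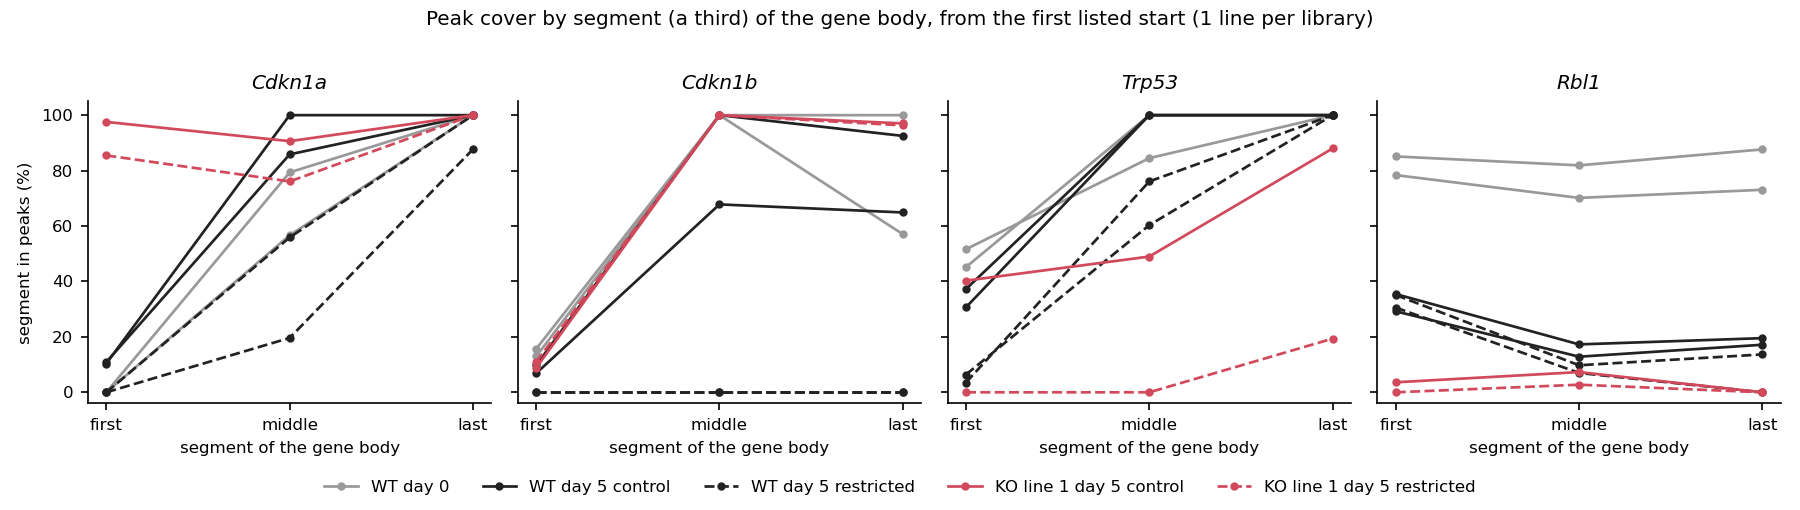
Cover of the first, middle and last of 3 equal segments of the body, counted from the first listed start, for 4 genes: 1 line per library, y axis in percent of the segment inside peaks. Grey lines are WT at day 0, black WT at day 5 and red KO line 1 at day 5, with dashes for restriction. At Cdkn1a the red lines start at 97.6 and 85.5% where the black and grey lines start at 0 to 10.9%.

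Other genes of the pathway were counted in 6 lists with 52 genes, of which 49 were tested in WT. Restriction at day 1 called 28 of the 49 lower and 2 higher, and at day 5 called 30 lower. From day 0 to day 5 in control medium 13 were lower and 3 higher, where 15.6% of all genes were lower and 12.2% higher. In the KO lines all 48 tested genes of these lists were called lower, as were 97.6% of all genes. Under restriction 36.0% of all genes were lower at day 1 and 41.5% at day 5.

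Among pocket protein partners and DREAM complex genes (7 of 7 tested), 3 were lower at day 5 than at day 0 in control medium, where 15.6% of all genes were. Mybl2, a cell cycle activator bound by this complex, fell by 76.9 points (SE 3.98, adjusted p = 3.8e-06), Lin9 by 44.7 (SE 7.34, adjusted p = 0.00233) and Lin54 by 34.7 (SE 4.49, adjusted p = 0.000622). Rbl2, which encodes the pocket protein p130 of resting cells, rose by 29.1 points from day 1 to day 5 (SE 6.1, adjusted p = 0.01). It had 50.8 and 65.0% at day 0 and 72.8 and 76.2% in the day 5 control libraries, a difference that was not called. The Rbl2 difference was 14.5 points with lists of equal covered length (adjusted p = 0.227), and its call was also lost without either day 1 control library or day 5 control replicate 1 (adjusted p = 0.05 to 0.0774). Under restriction at day 1 the histone-binding subunit Rbbp4 fell by 35.6 points and Lin37 by 40.3, while Mybl2 rose by 15.3 points (adjusted p = 0.000156, 0.00938 and 0.0162). With peaks up to 1 kb apart joined, Mybl2 differed by 3.84 points (adjusted p = 0.519), and its call was also lost with only the groups compared (adjusted p = 0.0529) and without day 1 control replicate 2 or either restricted library (adjusted p = 0.0503 to 0.119). At day 5 Rbbp4 fell by 36.4 points and Lin37 by 27.3 (adjusted p = 0.0001 and 0.0395), and with lists of equal covered length both Lin37 calls were lost, at -40.3 and 1.38 points (adjusted p = 0.147 and 0.986), as they were with centring (adjusted p = 0.0508 and 0.362), at day 1 without control replicate 2 or restricted replicate 1 (adjusted p = 0.0655 and 0.0519), and at day 5 without either control library or restricted replicate 1 (adjusted p = 0.109 to 0.246), with no filter on cover (adjusted p = 0.0797) and with peaks up to 1 kb apart joined (adjusted p = 0.0512).

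Of 8 cyclins, kinases and their activators of G1 and S phase, 3 were lower at day 5 than at day 0 in control medium (15.6% of all genes were). Ccnd2, another D-type cyclin, fell by 53.4 points, Ccne1 fell by 52.1 and Cdk6 fell by 38.1 (adjusted p = 0.000125, 0.000403 and 0.000136). With lists of equal covered length Ccnd2 differed by -21.2 points and was not called (adjusted p = 0.39). Restriction at day 1 called 6 of the 8 lower (36.0% of all genes were), led by Cdk4 (fell by 34.8 points, SE 4.68, adjusted p = 0.00075). At day 5 it called 2 lower (41.5% of all genes were), Cdk2 (fell by 36.0 points, adjusted p = 0.00189) and Ccna2 (fell by 17.2 points, adjusted p = 0.0034). Ccna2 differed by -0.502 points after centring (adjusted p = 0.917). Of 9 tested E2F and DP factors, 6 were lower under restriction at day 1 and 7 at day 5, again against 36.0% and 41.5% of all genes. E2f2 fell by 45.3 and 36.9 points and E2f4, a repressor E2F, by 45.0 and 31.2 points (adjusted p = 0.000102, 0.000181, 0.0013 and 0.00624). Between day 0 and day 5 E2f7 fell by 60.6 points, E2f1 fell by 27.9 and E2f3 fell by 17.5 (adjusted p = 5.11e-05, 0.00205 and 0.0179). The E2f1 call was lost with lists of equal covered length (adjusted p = 0.273). That of E2f3 was lost with only the groups compared and without day 0 replicate 1 or either day 5 control library (adjusted p = 0.0504 to 0.102), and that of E2f4 at day 5 without day 5 control replicate 1 (adjusted p = 0.0562).

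In the p53 pathway list 9 of 13 tested genes were lower under restriction at day 1 and 10 at day 5, where 36.0% and 41.5% of all genes were. Bax, a pro-apoptotic target of p53, fell by 59.9 points at day 1 (SE 4.79, adjusted p = 7.5e-05) and by 67.9 at day 5 (SE 4.79, adjusted p = 2.67e-05). Gadd45a fell by 52.4 and 49.9 points (adjusted p = 0.00124 and 0.00121). From day 0 to day 5 in control medium 2 of the 13 were higher, where 12.2% of all genes were. These were Trp53inp1, by 35.2 points (SE 7.54, adjusted p = 0.00895), and Sesn1, by 6.06 points (SE 1.67, adjusted p = 0.027). Trp53inp1 lost its call with peaks of −log10 q of at least 3 (25.7 points, adjusted p = 0.211), with lists of equal covered length (adjusted p = 0.0962), with only the groups compared (adjusted p = 0.0509) and without day 5 control replicate 1 (adjusted p = 0.073). Sesn1 lost it in 7 alternatives, with only the groups compared and without any 1 of the day 0 or day 5 libraries (adjusted p = 0.0501 to 0.127). Of 10 ubiquitin ligase genes, 4 were lower under restriction at day 1 and 7 at day 5, against 36.0% and 41.5% of all genes. The largest differences were at Cdc20 (-70.8 and -39.6 points, adjusted p = 0.000165 and 0.00222). Fbxw7, which marks cyclin E for destruction, rose by 26.2 points from day 0 to day 5 (SE 2.59, adjusted p = 0.000126), and the restriction effect on it differed between days by -18.9 points (SE 3.66, adjusted p = 0.0219). That interaction lost its call in 9 alternatives, among them peaks of −log10 q of at least 3 (-8.14 points, adjusted p = 0.224), lists of equal covered length (-10.3 points, adjusted p = 0.096) and the absence of any 1 of the day 1 or restricted day 5 libraries or of day 5 control replicate 1 (adjusted p = 0.0517 to 0.096). Among the other CDK inhibitors, Cdkn2d (p19INK4d) fell by 22.0 points under restriction at day 1 (SE 3.55, adjusted p = 0.00183) and by 24.9 at day 5 (SE 3.55, adjusted p = 0.000753), and neither call held with lists of equal covered length (-22.0 points, adjusted p = 0.0854, and 0 points), with peaks of −log10 q of at least 3 (-11.3 points, adjusted p = 0.441, and 0 points) or with centring (adjusted p = 0.122 and 0.0652). Cdkn3 fell by 19.4 points from day 0 to day 5 (adjusted p = 0.019), a call lost in 4 alternatives (adjusted p = 0.0658 to 0.118), and by 13.7 points under restriction at day 5 (adjusted p = 0.0493). The latter was 13.1, 14.4 and 2.95 points upward with peaks of −log10 q of at least 3, lists of equal covered length and centring, and its call was lost in 11 more alternatives.

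Genes most like each member were found by the mean absolute difference in cover over the 10 WT libraries, for members whose group means spanned at least 20 points. Closest to Cdkn1b were Mrpl52 (2.70 points), Hes1 (3.58) and Dok1 (3.66), each with a mean of 0% in both restricted groups. In KO line 1 at day 5 Dok1 had 64.8 and 69.2% and Mrpl52 46.2 and 34.3%, while Hes1 had 0 in both media. Closest to Cdkn1a were Dhcr7 (4.47), Ppp1r15a (4.51) and Tmem199 (4.86), and of these Ppp1r15a had 70.0 and 69.7% in KO line 1 at day 5, Dhcr7 22.3 and 3.72% and Tmem199 0. Closest to Ccnd1 were Irs1 (6.34), Rem1 (6.67) and Errfi1 (7.0), which had 34.5 to 75.2% in those libraries. Closest to Rbl1 were Prim1 (3.98), Wdhd1 (4.07) and Bora (4.38). Closest to Rb1 were Serinc2 (3.78), Sgtb (4.61) and Eda2r (4.82), and closest to Trp53 were Senp5 (3.28), Rin3 (3.47) and Fam120a (3.66). In KO line 1 at day 5 the 3 genes like Rbl1 had at most 3.9%, as low as Rbl1. Of those like Rb1, Eda2r had 49.9 and 5.71% and the others at most 1.36%, and of those like Trp53, Fam120a had 40.5 and 7.77% and the others at most 4.41%. Genes alike in WT were thus also alike in KO line 1 for Rbl1, and were spread for Cdkn1a, Cdkn1b, Rb1 and Trp53. Low cover was common in these libraries, where the medians of all genes were 11.04 and 0.506%, so likeness near 0 says little. This is a description over libraries that share their lists.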

How the data were processed

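H3K36me3 ChIP-seq libraries of C2C12 cells were deposited as 20 broad-peak lists, 1 per library, called by the authors on genome build GRCm38, per the submitters' processing notes. The peak caller, its control and its filters are not given in the sources used here. Per the labels' protocols a Drosophila spike-in was added, and no scaling by it was applied here. Each deposited peak carries the authors' fold enrichment (a ratio) and 2 values for its p and q, each as −log10. The fold served to rank and the −log10 q to filter peaks of the same list, and the deposited score column was not used. The input was not used here.

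Peaks of the autosomes and of X and Y were merged, and cover was computed over RefSeq bodies (GRCm38.p6) of protein-coding genes of at least 2 kb. Cover was tested with limma 3.58.1 (trend and robust) in R 4.3.3: 10 WT libraries in 5 groups, or 20 libraries with condition as a term. Genes had a mean cover of at least 5%, and calls had a Benjamini-Hochberg adjusted p under 0.05. The fit was tested on simulated data. Replicate lists shared no identical peak, and their covered bases overlapped with a Jaccard index of 0.602 to 0.697. All 10 genes were named by rule, up to 3 called genes with the largest difference per related list and comparison were eligible, and the 3 most alike genes per member are given. Members, lists and tests were chosen with earlier results of these data known. Alternatives were peaks of −log10 q of at least 3, lists of equal covered length (109.9 Mb), centring on the library median, no minimum or a minimum of 20% on cover, only the groups compared, a replicate block, joining of peaks up to 1 kb apart, each library, line or condition left out, and the downstream start.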

Additional observations from a re-analysis of the deposited data

Results flagged for a closer look

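From day 0 to day 5 in control medium, Ccnd1 moved one way in KO line 1 and the other way in every WT library: its cover was 43.1 points higher in KO line 1 (26.9% at day 0), while both WT libraries of day 5 (63.0 and 57.6%) lay below both of day 0 (84.7 and 84.9%). With peaks up to 1 kb apart joined, the WT difference was -6.23 points and not called by limma (adjusted p = 0.328). In KO line 1, 47.6% of 8859 genes were at least 10 points higher at day 5 than at day 0. KO line 1 has 1 library at each time, so the difference between genotypes was not tested. Groups held 1 or 2 libraries, too few to look for single outlying samples.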

How the results depend on the processing

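Without each replicate in turn, genes called numbered 2354 to 3984 for restriction at day 1 (3648 with all libraries), 2721 to 4660 at day 5 (4355), 212 to 659 for the interaction (495), 142 to 986 from day 0 to day 1 (629), 1108 to 2692 from day 1 to day 5 (2194) and 1759 to 2659 from day 0 to day 5 (2641). Single libraries whose absence moved a count over 1.5 times were control replicate 2 and restricted replicate 2 at day 1 for the first, and control replicate 1 at day 5 for the second and the last. For day 1 to day 5 they were both day 1 control libraries and day 5 control replicate 1. For the interaction they were both day 1 control libraries, day 1 restricted replicate 2, day 5 control replicate 1 and both restricted libraries of day 5. From day 0 to day 1 they were all 4 libraries compared and both restricted libraries of day 5. A −log10 q of at least 3 gave 2896 genes for restriction at day 5 and 1295 from day 1 to day 5. A cover minimum of 20%, which tests fewer genes, gave 188 for the interaction, 1751 from day 0 to day 5 and 5433 of 5492 tested for the KO lines (8654 of 8859 as fitted). From day 0 to day 1, lists of equal length gave 239 and centring 333. With only the groups compared, limma called 0 genes there, where 1876 had an unadjusted p under 0.05, and 1706 from day 0 to day 5.

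Centring moved the split of higher and lower calls to 225 and 108 from day 0 to day 1 (92 and 537 as fitted), 991 and 1176 from day 1 to day 5 (1628 and 566), 1614 and 1299 from day 0 to day 5 (1157 and 1484) and 3684 and 2521 for the KO lines (6 and 8648). Lists of equal length gave 120 and 119, 632 and 881, and, for the interaction, 344 and 273 (154 and 341). Centring also turned KO differences to 10.5 points at Ccnd1, 14.2 at Cdkn1a, 25.8 at Cdkn1b, 21.8 at Rb1, 30.6 at Cdkn2d and 3.54 at Cdkn3. A KO library's median was 0 to 11.04%, so centring subtracts little from it. The turns of Rb1, Rbl1, Lin37 and Cdkn3 under restriction at day 5 are 4.87 and 1.09, 10.8, 1.38, and 13.1, 14.4 and 2.95 points. Where no cause is named, it was not tested. Of 726 values of member results under alternatives, 640 kept direction and call, 39 lost a call, 9 gained one, 7 turned with a call in either fit and 31, of 13 results, took the other sign with a call in neither.

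Replicate differences correlated between WT groups at -0.0833 to 0.0616, so equal replicate numbers showed little in common. The exception was day 0 with day 1 in control medium, at -0.439, and its cause was not tested. A replicate block gave 3436 genes for restriction at day 1 and 4175 at day 5, and ended no member's call but that of Trp53 from day 1 to day 5. Depth is unknown, so no limit of detection can be given.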
